A study of Mus musculus with 2 samples.

Results

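The genes described here encode the proteins of the mitochondrial ribosome, and were taken as every protein-coding gene of the GENCODE M21 annotation (mouse build GRCm38, which is mm10) whose symbol is Mrps or Mrpl followed by a number and at most 1 letter. There were 78 of them among 21938 protein-coding genes, spread over 17 chromosomes. Of the 78, 26 encode proteins of the small subunit and 51 proteins of the large subunit. The remaining gene, Mrps36, carries the symbol but encodes a part of the oxoglutarate dehydrogenase complex and is in neither subunit.

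The study mapped trimethylation of lysine 4 on histone H3 (H3K4me3), a mark of active promoters, by ChIP-seq in MEL cells, an immortalized mouse erythroleukaemia line. It held 1 group with 2 libraries and no second condition, and the labels name no treatment. The labels number them as biological replicates 1 and 2 but name 1 cell sample for both, so the spread between them may be technical. Results rest on the deposited list of replicated peaks, with each replicate's own list beside it.

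Mitochondria keep their own ribosomes, which translate the few proteins encoded in mitochondrial DNA, all of them core subunits of the respiratory chain or of ATP synthase. The ribosomal RNAs come from mitochondrial DNA, while all of the ribosomal proteins are encoded in the nucleus, made in the cytosol and imported. Some of the proteins descend from those of the bacterial ribosome, and others were added in the mitochondrial lineage. The genes are housekeeping genes, and red cell precursors need working mitochondria to make haem.

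A gene was called marked when at least 1 of its annotated transcript starts had a peak no more than 1000 bp away. All 78 genes were marked in the replicated list, against 50.3% of the 21938 protein-coding genes. Among genes with a high-CpG promoter, defined over the 1001 bases around the start by CpG dinucleotides at 0.6 or more of their expected number together with a GC share from 0.5 up, 79.8% were marked. All 78 were also marked in the replicate 1 list, in the replicate 2 list and in the list from pooled replicates, where 50.4%, 50.9% and 50.6% of protein-coding genes were. The pooled and replicated lists come from the same 2 libraries and are no further replicates. A transcript start lay inside a peak in 75 of the 78, and in the other 3 the nearest peak edge was at most 37 bp away. This was counted for the Mrp genes only. The erythroid genes Gata1, Klf1, Tal1, Gfi1b and Nfe2 were marked in the same list, while the liver genes Alb and Ttr, the lymphoid genes Cd3e and Cd3g and the neuronal genes Snap25 and Syt1 were not.

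The complete marking extended to nearly all of the related nuclear genes. The 5 subunits of the mitochondrial ribosome with other symbols, among them the GTP-binding Dap3 and the pentatricopeptide protein Ptcd3, were all marked. So were all 15 listed mitochondrial translation factors, among them the elongation factors Tufm and Gfm1 and the inner membrane insertase Oxa1l. Of 21 genes for ribosome assembly and ribosomal RNA modification, 19 were marked. The exceptions were Fastkd2, an RNA-binding protein, and Gtpbp10, a GTPase. All 10 listed genes for transcription and replication of mitochondrial DNA were marked, among them Polrmt, the RNA polymerase, and Tfam, which packages the DNA. For comparison, 77 of 80 cytosolic ribosomal protein genes and 76 of 77 nuclear genes for oxidative phosphorylation subunits were marked.

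The deposited lists hold more than 1 measure of a peak's strength, and these placed the Mrp genes differently. Each peak carries a signal value made by the authors, whose formula was not given in the sources used here, so it was ranked only within 1 list. Where a gene had several peaks, the one with the highest signal was taken. The median signal of the 78 genes was 13.5 in the replicated list, with an interquartile range of 11.9 to 15.8, against 13.8 and 10.7 to 17.2 for the 10959 other marked genes. As a percentile among all marked genes, from 0 for the weakest to 100 for the strongest, the median was 48.0, against 50 for the others. In the replicated list 12 genes lay below percentile 25, 27 from there to percentile 50, 28 to percentile 75 and 11 above it. In replicate 1 the numbers were 13, 22, 22 and 21, and in replicate 2 they were 12, 24, 29 and 13. In a population of cells, fewer marked cells and less of the mark per cell cannot be told apart. In replicate 1 the median percentile was 51.3 and in replicate 2 it was 53.7, which gave 52.5 ± 1.70 (SD, n = 2). The −log10 q-value of the strongest peak, which the authors also give, was higher for the Mrp genes in each list. Its median was 76.8 against 65.9 for the other marked genes in the replicated list, 46.1 against 39.7 in replicate 1 and 97.0 against 82.2 in replicate 2. This was not particular to the Mrp genes. In the same order of lists, oxidative phosphorylation genes had 78.3, 51.4 and 94.5, and cytosolic ribosomal protein genes 74.9, 51.1 and 89.3.

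The strength at single genes ran from 6.35 to 29.0. Mrps6, whose product is a small subunit protein with a bacterial homologue, had the highest signal, 29.0 in the replicated list, with 17.6 in the replicate 1 list and 34.9 in the replicate 2 list. Its peak also lay at a start of Slc5a3, the myo-inositol transporter gene. It stood at percentile 88.4 in replicate 1 and 99.6 in replicate 2, so it was high in both. Given only peaks whose summit was nearest to its own start, its signal was 12.1 and its percentile 38.7. Mrpl54, a large subunit protein without a bacterial homologue, followed with 26.9, from 12.2 in replicate 1 and 26.1 in replicate 2. Its summit lay at -1384 bp from its nearest start, negative values being upstream, on the side of the neighbouring gene Apba3, and its rank differed between replicates, with percentiles of 50.6 and 94.5. With peaks nearest to its own start only, its percentile was 52.7. Mrps24, homologous to a bacterial protein at the messenger RNA entry side of the small subunit, had 26.4, with 18.4 in replicate 1 and 21.5 in replicate 2. Mrpl21, with a bacterial homologue, had 21.5, with 20.7 and 19.0 in replicates 1 and 2. Mrpl41, specific to mitochondria, had 20.0, with 18.4 and 24.2. Mrps6, Mrps24 and Mrpl41 were above percentile 75 of marked genes in both replicates, as was Mrpl22.

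At the other end, Mrpl23, whose bacterial homologue sits at the mouth of the peptide exit tunnel, had the lowest signal, 6.35 in the replicated list, 6.98 in replicate 1 and 11.9 in replicate 2. Mrpl3, a homologue of a protein near the peptidyl transferase centre, had 7.25, with 12.8 in replicate 1 and 8.90 in replicate 2. Mrpl16 had 8.00, with 13.2 and 10.6 in replicates 1 and 2. The replicates ranked these genes differently: Mrpl23 stood at percentile 10.3 in replicate 1 and 25.2 in replicate 2, and Mrpl3 at 56.4 and 11.02. Mrps18a, 1 of the 3 Mrps18 genes, whose own product is found in the large subunit despite its symbol, had 8.73, with 8.44 and 9.18 in replicates 1 and 2. Mrpl24, also a bacterial homologue at the exit tunnel, had 8.98, with 8.27 and 11.003. Mrps18a and Mrpl24 were below percentile 25 in both replicates, together with Mrpl4, Mrpl12, Mrps12 and Mrps31.

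The replicate lists ordered the 78 genes by signal only loosely. The Spearman correlation of the signal percentiles between replicates was 0.189 over the 78 genes and 0.4999 over 10886 other genes marked in both lists. These points share 1 source of cells, and genes at a shared promoter share a peak, so the coefficients are descriptions. The median gap between a gene's replicate percentiles was 20.6 points, against 17.1 for the others. A gap above 50 points occurred at 9 of the 78 genes (11.5%), against 9.16% of the others. Replicate 1 ranked Mrpl32, Mrpl18, Mrps18c, Mrps7 and Mrpl15 higher by that margin, and replicate 2 ranked Mrpl2, Mrpl44, Mrpl40 and Mrpl34 higher. Mrpl2, a homologue of a core protein of the bacterial large subunit, had a signal of 11.6 in replicate 1 and 32.0 in replicate 2, at percentiles 45.2 and 99.0. Mrpl32 had 22.6 in replicate 1 and 12.0 in replicate 2, at percentiles 98.4 and 25.9. At both genes the strongest peaks of the replicates were different, non-overlapping peaks, as they were at Mrpl34. The strongest peaks of the replicates overlapped at 68 of the 78 genes (87.2%), against 85.0% of the others. Replicate 1 had more peaks than replicate 2 near the starts of 36 Mrp genes and fewer near those of 2, and was equal at the other 40. Among the 10886 other genes the numbers were 4778, 738 and 5370, so this was not particular to the Mrp genes.

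**Figure D1:**
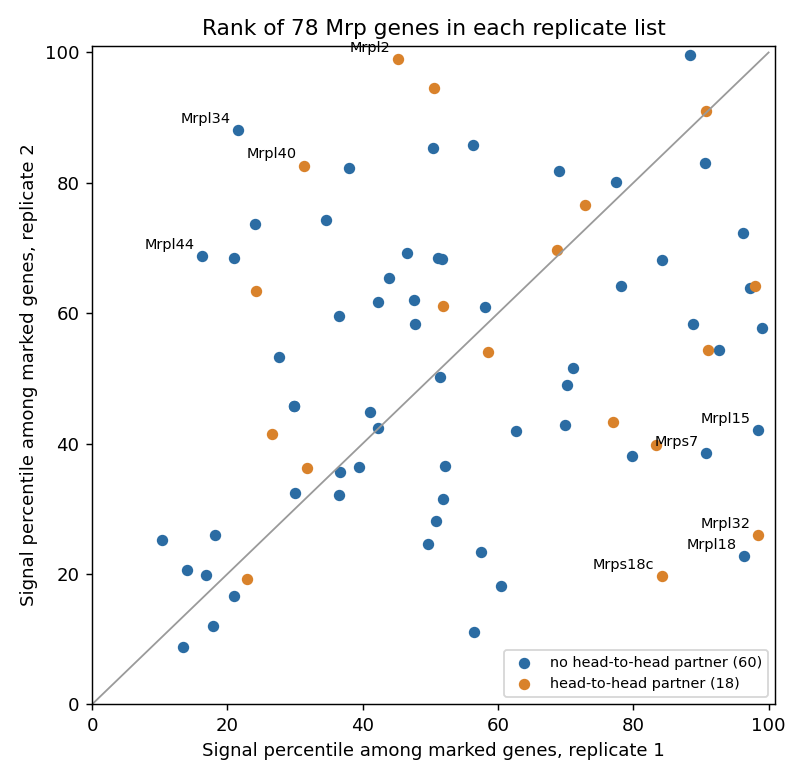
Signal percentile of each of the 78 genes among all marked genes in the replicate 1 list (horizontal axis) and in the replicate 2 list (vertical axis), 1 point per gene, in orange for the 18 genes with a head-to-head partner, with the diagonal marking equal ranks. The points scatter widely about the diagonal (Spearman 0.189), and the 9 labelled genes differ by more than 50 percentile points.

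The replicates ordered the genes by the extent of the mark more alike than by its height. Peaks were merged into domains across gaps of up to 1000 bp. The Spearman correlation of domain width between replicates was 0.893 over the 78 genes and 0.909 over the others. The median domain of the 78 genes was 2158 bp wide in the replicated list, with an interquartile range of 1629 to 2514 bp, against 2260 bp and 1668 to 3043 bp for the other marked genes. Over the 2 replicates the median was 2207 ± 220 bp (SD, n = 2), against 2319 ± 128 bp for the others. Within each library the Mrp genes had the narrower median, at 2362 against 2410 bp in replicate 1 and 2051 against 2228 bp in replicate 2. The median strongest peak was 1386 bp wide, against 1369 bp for the others. Cytosolic ribosomal protein genes had a median domain of 3264 bp and oxidative phosphorylation genes 2370 bp.

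Very wide domains were few among the 78 genes, but this was not particular to them. Their upper quartile was 2514 bp, and 1 gene had a domain of at least 5000 bp, against 478 of the 10959 other marked genes. In the replicate lists it was again 1 Mrp gene, against 797 others in replicate 1 and 421 in replicate 2. Of the 76 marked oxidative phosphorylation genes, 1 reached this width in each of the 3 lists. Of the 77 marked cytosolic ribosomal protein genes, 5 did in the replicated list, 8 in replicate 1 and 6 in replicate 2. These counts are small and describe the lists only. The Mrp gene was Mrps18b, of the small subunit, at 5118 bp in the replicated list, 5426 bp in replicate 1 and 5022 bp in replicate 2. Its domain ran 4004 bp upstream of its start, into the gene Ppp1r10, and 1113 bp into Mrps18b. Mrpl52, specific to mitochondria, followed with 4945 bp, from 4994 bp and 4624 bp in replicates 1 and 2, of which 3652 bp lay upstream of its start. Mrps7, of bacterial descent, had 4027 bp, with 4440 bp in replicate 1 and 2764 bp in replicate 2. In these domains of the replicated list the upstream side was thus the longer one. Mrpl48, with 3667 bp, and Mrpl18, with 3285 bp, completed the widest 5 of that list, and both extended farther upstream than downstream there. Mrpl48 had 3720 and 3504 bp in replicates 1 and 2, and Mrpl18 had 3875 and 3217 bp. The ranking depended on the list. Mrpl42 had 1677 bp in the replicated list, but 4345 bp in replicate 1 and 4321 bp in replicate 2.

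Of the 5 narrowest domains, 3 lay almost wholly inside the gene. Mrps2, the homologue of a bacterial small subunit protein, had a domain of 987 bp, with 983 bp in replicate 1 and 1209 bp in replicate 2, that began 4 bp downstream of its 5′-most start. Mrpl11, a stalk-base protein in the bacterial ribosome, had 1190 bp, with 1166 and 1204 bp in replicates 1 and 2, of which 71 bp were upstream. Mrpl28 had 1214 bp, with 1174 and 1265 bp, and its domain began downstream of the 5′-most start. All 3 were narrow in both replicates. Mrpl24 had 1224 bp, with 1203 and 1231 bp in replicates 1 and 2. Mrpl3 had 1325 bp, with 1635 bp in replicate 1 and 1327 bp in replicate 2.

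**Figure D2:**
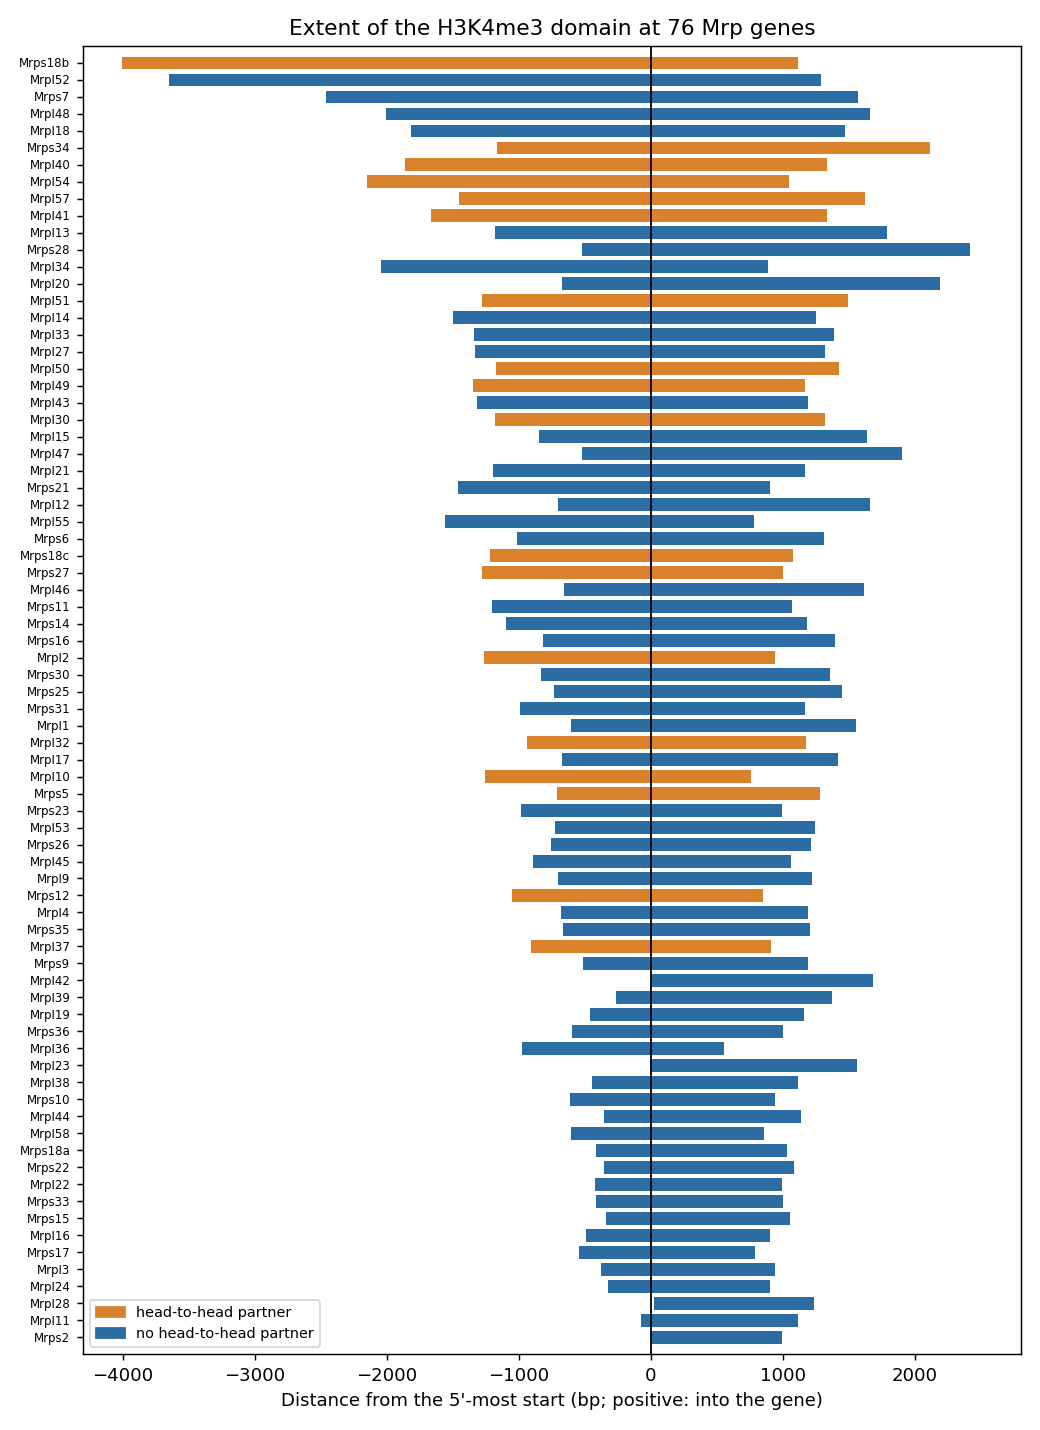
Extent of the merged H3K4me3 domain at the 76 genes marked at their 5′-most start, drawn in bp from that start with positive values running into the gene, sorted by width, in orange for genes with a head-to-head partner. Mrps18b and Mrpl52 reach 4004 and 3652 bp upstream, while Mrps2 and Mrpl28 begin just downstream of the start.

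The downstream arm of the domain was the more uniform one. From the 5′-most start the domain reached a median of 1190 bp into the gene, with quartiles of 1005 and 1400 bp, against 1333 bp and quartiles of 988 and 1860 bp for the other marked genes. It reached a median of 838 bp upstream, with quartiles of 520 and 1264 bp, against 813 bp and 474 to 1253 bp. The 5′-most start was inside a peak at 49 genes (62.8%, against 55.2% of the others). At 24 genes (30.8%, against 29.99%) it lay in a gap between peaks of the domain, with a median gap of 166 bp. These shares moved with the list: the start lay between peaks at 56.4% of the Mrp genes in replicate 1 and 20.5% in replicate 2, against 49.5% and 22.2% of the others. Mrpl35 and Mrps24, a large and a small subunit gene, were marked only at a start other than the 5′-most. Both have low-CpG sequence at the 5′-most start, as do Mrpl20 and Mrpl33. High-CpG promoters made up 62 of the 78 (79.5%), against 70.4% of the other marked genes and 44.3% of all other genes.

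The share of summits close to the start depended on the library. The median summit lay 99.5 bp downstream of the nearest annotated start, against 104 bp for the other marked genes, but the interquartile range was -63.5 to 134 bp, against -160 to 291 bp. Between 0 and 200 bp downstream lay 43 summits (55.1%), against 38.3% for the others, 27.3% for cytosolic ribosomal protein genes and 43.4% for oxidative phosphorylation genes. In replicate 1 only 19 of the 78 (24.4%) lay there, against 18.5% of the others, and in replicate 2 it was 46 (59.0%), against 45.4%. In replicates 1 and 2 oxidative phosphorylation genes had 25% and 56.6% there, and cytosolic ribosomal protein genes 10.4% and 36.4%. The mitochondrial translation factor genes had 33.3% and 80%, so a high share near the start was not particular to the Mrp genes. More than 500 bp away on either side lay 4 summits of the Mrp genes in the replicated list (5.13%), against 19.1% for the others. In replicate 1 it was 18 (23.1%), against 36.5%, and in replicate 2 it was 5 (6.41%), against 14.4%. Against the other marked genes as a whole, the Mrp genes thus had the higher share near the start and the lower share far from it in each list. The levels themselves moved by more than 2 times between replicates. The share downstream of the start was 69.2%, which was near the 68.6% of the other marked genes. The replicates gave a median offset of 111 ± 12.0 bp (SD, n = 2) for the 78 genes and 131 ± 44.5 bp for the others.

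The coding sequence of these genes begins early, with a median of 28 bp along the genome from the nearest annotated start to the most upstream coding base, against 102 bp for other marked genes. The medians were 29 bp for cytosolic ribosomal protein genes and 36.5 bp for oxidative phosphorylation genes. The summit fell in a coding exon at 21 genes (26.9%), against 13.9% of the other marked genes. In replicate 1 it did so at 10 genes (12.8%, against 6.28%), and in replicate 2 at 22 (28.2%, against 16.7%). In the same order of lists the marked genes for ribosome assembly and ribosomal RNA modification had 31.6%, 10.5% and 42.1%. Oxidative phosphorylation genes had 14.5%, 2.63% and 17.1%. It fell in an intron at 25 genes, in the untranslated part of an exon at 14 and outside the gene at 18. In the replicated list the summits farthest upstream belonged to Mrpl34, at -1406 bp, Mrpl54, at -1384 bp, and Mrpl40, at -940 bp. For Mrpl34 replicate 1 gave 104 bp, which is downstream, and replicate 2 gave -1407 bp. For Mrpl54 the replicates gave -184 and -1419 bp, and for Mrpl40 they gave -1225 and -679 bp, so Mrpl40 was far upstream in both. Each of these 3 peaks of the replicated list also lay at the start of a neighbour, which was Abhd8 for Mrpl34, Apba3 for Mrpl54 and Hira, a histone chaperone gene, for Mrpl40. The summits farthest downstream in that list belonged to Mrpl47, at 695 bp, Mrps24, at 445 bp, and Mrps16, at 418 bp. Mrpl47 stood at 1028 bp in replicate 1 and 695 bp in replicate 2. Mrps24 stood at 618 and 103 bp, and Mrps16 at -367 and 82 bp, so neither replicate placed Mrps16 far downstream. The Mrpl47 peak was shared with Ndufb5, which encodes a subunit of respiratory complex I.

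**Figure D3:**
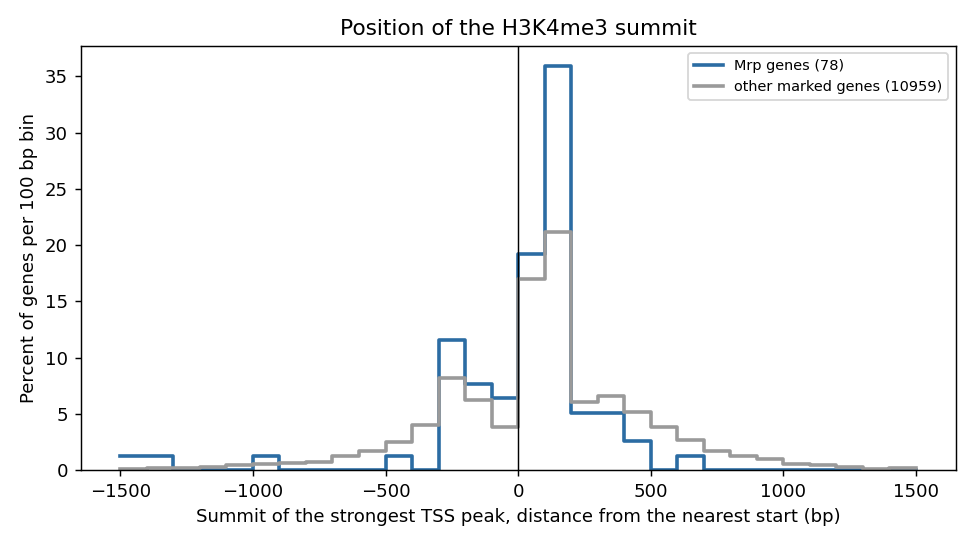
Percent of genes per 100 bp bin (vertical axis) by the distance of the strongest peak's summit from the nearest annotated start in bp (horizontal axis, positive downstream), in the replicated list, in blue for the 78 genes and in grey for the 10959 other marked genes. The blue line is the higher one between 0 and 200 bp, where 55.1% of the 78 genes lie against 38.3% of the others; the shares were 24.4% against 18.5% in replicate 1 and 59.0% against 45.4% in replicate 2.

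Shared promoters were frequent. A gene was called head-to-head when the 5′-most start of a protein-coding gene on the opposite strand lay up to 1000 bp upstream of its own. That held for 18 of the 78 genes (23.1%), against 12.4% of the other marked genes and 6.72% of all other genes. Among marked oxidative phosphorylation genes the share was 25%, and among marked cytosolic ribosomal protein genes it was 10.4%. All 18 partners were marked, and each shared the same strongest peak with its mitochondrial ribosomal gene. Close starts mostly fall within 1000 bp of the same peak, so this sharing follows largely from the definitions. Among the other marked head-to-head genes, 94.8% had their strongest peak within 1000 bp of another protein-coding start. The starts of a pair were a median of 82.0 bp apart, and 16 of 18 pairs (88.9%) were under 200 bp apart, against 69.8% of the 1359 other marked head-to-head genes.

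The closest pairs were Mrpl54 with Apba3, an adaptor protein gene, at 26 bp, Mrps18c with the DNA helicase gene Helq at 29 bp, and Mrps34 with the endonuclease gene Eme2 at 29 bp. Mrps18b followed with Ppp1r10, a nuclear phosphatase-targeting gene, at 45 bp, and Mrpl57 with Ska3, a kinetochore protein gene, at 49 bp. The next were Mrpl49 with Fau, the precursor of a cytosolic ribosomal protein, at 59 bp, Mrpl30 with Mitd1 at 66 bp, and Mrpl32 with the proteasome gene Psma2 at 75 bp. Mrps27 with Ptcd2, Mrpl50 with Zfp189 and Mrpl51 with the condensin gene Ncapd2 stood 81, 83 and 100 bp apart. Mrpl37 with Cyb5rl, Mrps5 with Zfp661 and Mrpl10 with Lrrc46 stood 120, 128 and 153 bp apart. Mrps12, the homologue of a protein of the bacterial decoding centre, stood 172 bp from Sars2, which encodes the mitochondrial seryl-tRNA synthetase. Mrpl40 with Hira stood 175 bp apart, Mrpl2 with Klc4, a kinesin light chain gene, 207 bp, and Mrpl41 with Pnpla7 935 bp. The partners thus came from many pathways, and of the 18, Sars2 and Ptcd2 also act in mitochondrial RNA metabolism or translation.

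The sequences of 5 of these shared promoters are shown so that the short distance between opposite starts can be read directly. Each run begins 30 bases inside the partner and ends 30 bases inside the Mrp gene, is read on the strand of the Mrp gene, and comes from the GRCm38 (mm10) genome. Capitals mark matches to the ETS core motif CCGGAAG or the NRF1 motif, which is GCGCA, any base and GCGC, on either strand.
Helq to Mrps18c, chr5:100798569-100798656, plus strand: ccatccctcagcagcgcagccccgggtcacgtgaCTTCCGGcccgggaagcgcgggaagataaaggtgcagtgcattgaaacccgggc
Ppp1r10 to Mrps18b, chr17:35916360-35916463, minus strand: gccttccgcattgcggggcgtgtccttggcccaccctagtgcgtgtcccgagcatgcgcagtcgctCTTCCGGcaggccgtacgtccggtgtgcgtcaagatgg
Ska3 to Mrpl57, chr14:57826156-57826263, plus strand: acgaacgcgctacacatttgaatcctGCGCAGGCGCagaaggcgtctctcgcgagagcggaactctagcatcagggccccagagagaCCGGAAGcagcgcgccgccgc
Fau to Mrpl49, chr19:6057756-6057873, minus strand: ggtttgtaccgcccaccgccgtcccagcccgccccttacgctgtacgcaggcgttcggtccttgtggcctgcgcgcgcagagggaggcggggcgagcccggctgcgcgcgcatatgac
Sars2 to Mrps12, chr7:28741791-28742021, minus strand: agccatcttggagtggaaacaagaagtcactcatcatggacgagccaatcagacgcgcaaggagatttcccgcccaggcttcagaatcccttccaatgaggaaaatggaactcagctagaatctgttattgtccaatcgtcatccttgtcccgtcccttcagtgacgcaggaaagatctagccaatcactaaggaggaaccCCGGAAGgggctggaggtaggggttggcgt
The Helq, Ppp1r10, Ska3 and Sars2 pairs each held 1 ETS match, and the Ska3 pair held an NRF1 match as well. The Fau pair held neither within the stretch shown. From the RefSeq starts used for the motifs below, the ETS match lay at position -156 for Mrps18c and 44 for Mrps18b. Those starts thus differ from the 5′-most GENCODE starts, from which the distances between opposite starts were taken. A match is a run of letters and not evidence of binding.

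The mark was broader where promoters were shared. The 18 head-to-head genes had a median domain of 2511 bp, against 1967 bp for the other 60 Mrp genes, with 3062 against 2242 bp in replicate 1 and 2524 against 1992 bp in replicate 2. Upstream of the start their domains reached 1260 bp against 678 bp, while downstream they reached 1174 bp against 1192 bp. In replicate 1 both sides were longer, with 1296 against 760 bp upstream and 1510 against 1236 bp downstream. In replicate 2 the upstream values were 1304 and 703 bp, and the downstream values 1145 and 1178 bp. The other marked head-to-head genes had a median domain of 2661 bp, with 1381 bp upstream and 1218 bp downstream. The summit was downstream of the start at 8 of the 18 head-to-head genes and at 46 of the other 60, with median offsets of -95.5 and 112 bp. The sign of the median for the 18 turned in the replicates, at 229 and 29.5 bp against 118 and 110 bp for the 60. There 11 and 9 of the 18 summits lay downstream, against 42 and 46 of the 60. In the replicated list at least 2 peaks lay at 15 of the 18 (83.3%) and at 32 of the 60 (53.3%). Of the other marked head-to-head genes, 75.3% had at least 2 peaks and 47.4% had the summit downstream in that list. All 18 had high-CpG promoters. The median signal percentile was 42.8 for the 18 and 50.2 for the 60 in the replicated list, but the order turned in both replicates, with 63.6 against 50.6 in replicate 1 and 57.8 against 50.9 in replicate 2.

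Sharing went beyond strict head-to-head pairs. The strongest peak lay within 1000 bp of another protein-coding gene's start at 34 of the 78 genes (43.6%), against 24.0% of the other marked genes. It did so at 40.8% of marked oxidative phosphorylation genes and 23.4% of marked cytosolic ribosomal protein genes. Mrpl43 shared its peak with Twnk, which encodes the helicase of mitochondrial DNA, and Mrpl18 with Tcp1, a subunit gene of the cytosolic chaperonin. Mrps11 and Mrpl46, a small and a large subunit gene, overlap on opposite strands of chromosome 7 with starts 412 bp apart. They were the only Mrp genes within 100000 bp of each other, and shared 1 peak with a signal of 12.8, from 9.95 in replicate 1 and 14.9 in replicate 2. When each peak was given only to the gene whose start was nearest to the summit, 73 of the 78 genes remained marked, against 47.6% of protein-coding genes. Mrpl30, Mrpl57, Mrps7, Mrps11 and Mrps34 lost their call, since the summit at each was nearer to a neighbour's start.

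**Figure D4:**
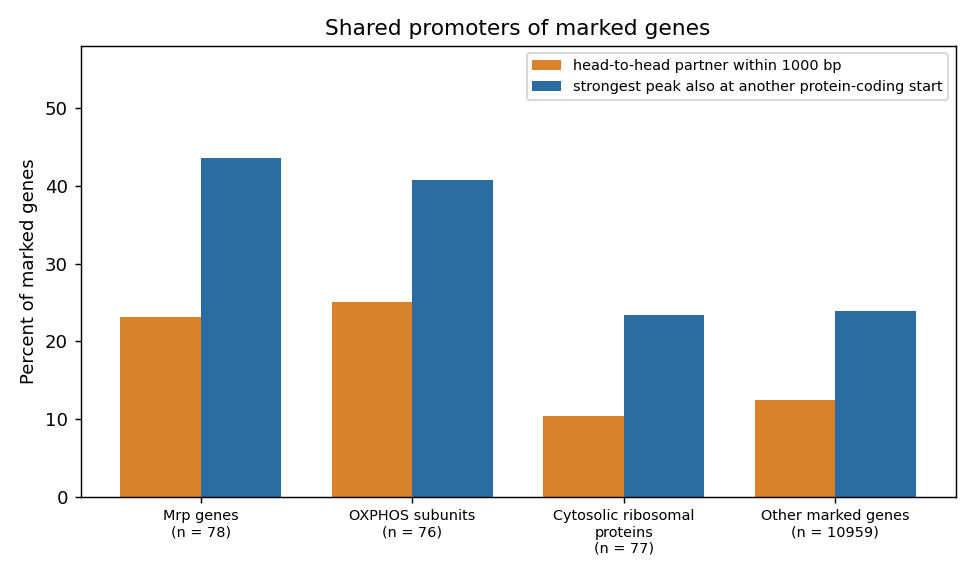
Percent of marked genes (vertical axis, from 0) with a head-to-head partner within 1000 bp (orange) and with the strongest peak also at another protein-coding start (blue), in 4 groups of genes. The Mrp genes stand at 23.1% and 43.6%, near the oxidative phosphorylation genes at 25% and 40.8%, and the other marked genes at 12.4% and 24.0%.

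The 26 small subunit genes had a median signal percentile of 45.9 and a median domain of 2075 bp, and the 51 large subunit genes 50.9 and 2193 bp. The order of the percentiles held in replicate 1, with 48.6 and 51.7, and turned in replicate 2, with 57.99 and 51.5. A head-to-head partner was present at 6 of the 26 and at 12 of the 51. Mrps36, in neither subunit, had a signal of 10.7, with 9.97 in replicate 1 and 13.0 in replicate 2, and a domain of 1602 bp. The genes were also split by assigned descent. Mrps18c was counted among the bacterial homologues, and Mrps18a and Mrps18b among the mitochondria-specific genes. The 45 genes counted as having a bacterial homologue had a median percentile of 41.7, and the 32 counted as specific to mitochondria had 55.1. In replicate 1 the gap was gone, with 51.8 and 50.7, and in replicate 2 the values were 43.3 and 61.5. Head-to-head partners were found at 7 of the 45 (15.6%) and at 11 of the 32 (34.4%), and high-CpG promoters at 71.1% and 90.6%. Within the large subunit the median percentiles were 37.8 for the 29 genes of bacterial descent and 59.9 for the 22 others. In replicate 1 the order turned, with 56.4 and 50.7, and in replicate 2 it was 42.1 and 61.5. These are descriptions of the genes, and no test was made over them.

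Across the 78 genes, wider domains went with CpG-richer promoters. The Spearman correlation of domain width with the CpG ratio was 0.379, against 0.336 over the 10959 other marked genes, and with GC content it was 0.421, against 0.252. The coefficient of signal with domain width was 0.0903, against 0.295 for the others, with 0.334 against 0.416 in replicate 1 and 0.0400 against 0.285 in replicate 2. For domain width with the CpG ratio the replicates gave 0.300 and 0.346, against 0.342 for the others in both. Both measures of a gene come from the same peaks, so these values describe the list and carry no test.

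Promoter sequence was searched for 9 short motifs in RefSeq windows on GRCm38.p6, running from 250 bases before to 50 bases after each annotated start. Of the 78 genes, 69 had an entry, with 75 windows, and the others were Mrpl4, Mrpl13, Mrpl15, Mrpl19, Mrpl38, Mrpl54, Mrps28, Mrps34 and Mrps35. The ETS motif CCGGAAG, bound by factors such as GABPA, was found on either strand in 34.7% of the Mrp windows, in 18.9% of 11032 windows of other marked genes and in 8.86% of all 32851 windows. The motif of NRF1 (GCGCA, any base, GCGC), a regulator of nuclear genes for mitochondrial proteins, was found in 17.3%, 10.7% and 4.60%. The YY1 motif AANATGGCG was found in 14.7%, 5.38% and 2.38%. At least 1 of the 3 was present in 56.0%, 30.9% and 14.2% of the windows. The SP/KLF motif GGGCGG went the other way relative to marked genes, with 52.0% of Mrp windows, 64.1% of other marked windows and 35.7% of all windows.

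The remaining motifs were nearer to the other marked genes, apart from GATA. CCAAT was in 40.0% of Mrp windows and 38.2% of other marked windows, and 37.4% of all. The TATA motif TATAAA was in 6.67%, 6.42% and 13.6%. The E-box CACGTG was in 9.33%, 10.1% and 7.15%, and the ZNF143 motif ACTACAA in 6.67%, 4.42% and 3.24%. The letters AGATAA, read by GATA factors, were in 14.7% of Mrp windows, 6.43% of other marked windows and 11.2% of all windows. Low-CpG promoters made up 5.13% of the Mrp genes, 13.3% of the other marked genes and 40.2% of all other genes, and the part of base composition in these shares was not tested. Matches of different motifs overlapped in 3 Mrp windows, 2 with ETS and SP/KLF and 1 with CCAAT and GATA.

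**Figure D5:**
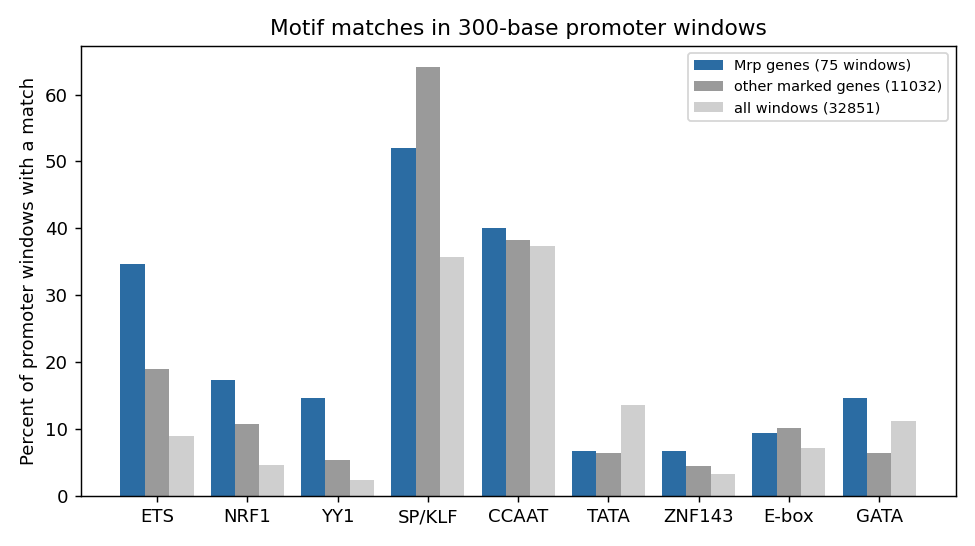
Percent of 300-base promoter windows with a match on either strand (vertical axis, from 0) for each of the 9 motifs, for the 75 Mrp windows (blue), 11032 windows of other marked genes (grey) and all 32851 windows (light grey). The blue bar is the tallest for ETS, NRF1, YY1, CCAAT, ZNF143 and GATA, at 34.7%, 17.3%, 14.7%, 40.0%, 6.67% and 14.7%, and lies below the grey bar for SP/KLF, at 52.0% against 64.1%.

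The position of the matches differed between motifs. ETS matches lay close to the start, with 28 of 31 in the Mrp windows between 100 bases before it and the window's end (90.3%), against 74.8% in the other marked windows. Of 16 NRF1 matches, 11 lay in the 100 bases before the start (68.8%), against 55.8% in the other marked windows. A place that matched on both strands was counted once. Downstream of the start lay 18.8% of the NRF1 matches, against 15.7%, so lying upstream was not particular to the Mrp windows. The windows also reach farther before the start than after it. Of 11 YY1 matches, 9 lay downstream of the start on the gene's own strand (81.8%), at positions 9 to 37 bases after it, against 42.7% of the matches in other marked windows. The YY1 motif contains the letters ATG, and in 7 of these 9 genes that ATG was an annotated start codon, as it was at 168 of 266 such matches (63.2%) in other marked windows. The 7 were Mrpl27, Mrpl35, Mrpl58, Mrps18a, Mrps24, Mrps27 and Mrps30. Mrpl58, a peptidyl-tRNA hydrolase built into the large subunit, and Mrps30, a large subunit protein despite its symbol, are shown with these letters. At least 2 of the ETS, NRF1 and YY1 motifs were found in 8 windows, those of Mrpl17, Mrpl27, Mrpl57, Mrpl58, Mrps18a, Mrps21, Mrps26 and Mrps27.

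The promoters of 6 genes with such matches are shown, each read on the strand of the gene from the RefSeq window on GRCm38.p6, with capitals for ETS, NRF1 or YY1 matches on either strand. Mrps22, Mrpl43 and Mrpl58 show ETS matches, Mrps9 and Mrpl9 NRF1 matches, and Mrpl58 and Mrps30 the YY1 motif at the start codon.
Mrps22, chr9:98601650-98601799, minus strand: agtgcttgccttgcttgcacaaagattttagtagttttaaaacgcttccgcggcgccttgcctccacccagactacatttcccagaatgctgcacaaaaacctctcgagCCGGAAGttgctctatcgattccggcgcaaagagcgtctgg
Mrpl43, chr19:45006413-45006562, minus strand: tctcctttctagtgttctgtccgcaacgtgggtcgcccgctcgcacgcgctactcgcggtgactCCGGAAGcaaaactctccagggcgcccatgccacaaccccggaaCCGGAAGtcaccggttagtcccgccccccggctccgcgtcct
Mrps9, chr1:42851113-42851262, plus strand: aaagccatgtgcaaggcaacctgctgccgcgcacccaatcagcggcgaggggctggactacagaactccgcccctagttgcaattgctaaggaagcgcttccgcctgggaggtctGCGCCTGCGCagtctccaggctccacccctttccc
Mrpl9, chr3:94443216-94443347, plus strand: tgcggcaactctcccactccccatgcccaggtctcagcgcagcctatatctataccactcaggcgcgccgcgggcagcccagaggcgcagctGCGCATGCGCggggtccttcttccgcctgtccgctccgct
Mrpl58, chr11:115403632-115403781, plus strand: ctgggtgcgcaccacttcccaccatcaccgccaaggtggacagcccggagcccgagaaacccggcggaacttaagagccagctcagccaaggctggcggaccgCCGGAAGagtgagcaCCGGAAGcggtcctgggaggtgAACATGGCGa
Mrps30, chr13:118387223-118387372, minus strand: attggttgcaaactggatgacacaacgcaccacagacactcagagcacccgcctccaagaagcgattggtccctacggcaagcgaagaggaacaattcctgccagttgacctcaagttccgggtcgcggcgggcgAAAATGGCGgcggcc
Mrpl43 and Mrpl58 each carried 2 ETS matches. In the replicated list the signals of the 6 genes ran from 15.1 at Mrpl58 to 19.1 at Mrpl43. In replicate 1 they ran from 10.7 at Mrpl58 to 14.3 at Mrps22, and in replicate 2 from 16.9 at Mrpl58 to 22.3 at Mrpl43. All 6 stood above the median of marked genes in the replicated list and in replicate 2, and they were chosen for their motifs and not as a sample of the list. They do not stand for all Mrp genes with these motifs. In the replicated list the median percentile was 51.3 for the 26 genes with ETS and 41.7 for the 43 without. It was 41.0 and 45.9 for the 13 with and 56 without NRF1, and 51.8 and 44.2 for the 11 with and 58 without YY1.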

How the data were processed

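H3K4me3 ChIP-seq was analysed from 4 peak lists on mm10, in narrowPeak format per the notes deposited with the samples: 1 for each replicate, 1 from pooled alignments and 1 of replicated peaks. A further list on mm9 was not used here. No label or header names the aligner or the peak caller, and both were not given in the sources used here. Each peak has, from the authors, a signal value, used as a score to rank peaks within a list, and a deposited −log10 q-value. The lists hold no read counts, so depth is unknown, and no interval of counting error was computed.

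The members and lists were chosen with earlier results of these data known. Transcript starts came from GENCODE M21 on GRCm38. A peak within 1000 bp of a start marked the gene, and a peak could mark several genes. Summit offsets were measured from the nearest start. CpG class used 1001 bases around the 5′-most start, with low-CpG below a ratio of 0.4. Motifs were searched on both strands of RefSeq windows. Marking, pairing and summit positions were tested on simulated data. No test was run over genes, which are not replicates.

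Genes named by rule were the 5 highest and lowest in signal, the 5 widest and narrowest domains, the 3 summits farthest on each side, genes marked only at an internal start, and the 5 closest head-to-head pairs. Others named were chosen after their values were seen. Alternatives were windows of 500 and 2500 bp, the 5′-most start alone, peaks with −log10 q from 5 up, the pooled list, either replicate list alone, peaks given to the nearest start only, other domain gaps, other pair limits, and genes with no opposite-strand start within 2000 bp. Their effect on single genes, and the replicate values of subsets of genes and of summit positions, were added after the data were seen. Python 3.11.15, numpy 2.4.6, pandas 2.3.3, scipy 1.17.1, pysam 0.24.0 and matplotlib 3.10.9 were used.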

Additional observations from a re-analysis of the deposited data

How the results depend on the processing

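Of 54 values recomputed for the 7 summary measures, 43 stayed within 1 SD of the replicates, within 1.5 times a count or within an interval. That interval, for the head-to-head share, was 95% exact binomial (a yardstick only, since genes are not independent draws). The other 11 moved. The order against the other marked genes turned in some settings and held in others. The median strongest peak was 1386 against 1369 bp in the main setting, but 1302 against 1325 bp with the nearest start only. The median offset was 99.5 against 104 bp in the main setting, but 102 against 99 bp without replicate 1. All 78 genes stayed marked under every alternative tried except the 5′-most start alone, with 76, and peaks given to the nearest start only, with 73. The median signal percentile, 48.0, was 50.5 with a 2500 bp window, 45.8 with the nearest start only, and 51.3 to 53.7 with 1 replicate left out, against 49.9 to 50.02 for the other marked genes in each case. The median width of the strongest peak was 1193 bp without replicate 2 and 1462 bp without replicate 1. The median summit offset was 157 bp from the 5′-most start, and 102 to 119 bp with 1 replicate left out. The share of summits downstream was 75% from the 5′-most start, 78.1% with the nearest start only and 76.7% among genes with no opposite-strand start within 2000 bp. The other marked genes gave 74.0%, 74.9% and 73.4% there. The share with a head-to-head partner was 37.2% when any start of either gene counted, against 19.8% of the other marked genes, and 21.8% and 25.6% with limits of 500 and 2000 bp. No paired analysis was possible because the study has 1 group. The lists give no read counts, so what depth limits is unknown.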

Other observations

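Among the other genes that serve the mitochondrial genome, nearly all were marked, and the median signal differed from list to list. The 10 genes for mitochondrial transcription and replication had a median signal percentile of 73.1, against 48.0 for the Mrp genes. In the replicates it was 63.7 and 59.9, against 51.3 and 53.7. The strongest in the replicated list was Mterf1b, a transcription termination factor gene, with a signal of 32.2 and rank 11 of all marked genes. Its peak was 885 bp wide with the summit at 553 bp, while Mterf1a, of the same 10 genes, stood at percentile 28.6. Ssbp1, the single-stranded DNA-binding protein of mitochondria, had a signal of 8.07 in that list. The 19 marked genes for ribosome assembly and ribosomal RNA modification had a median percentile of 29.1, from 7.21 at Ngrn to 94.6 at the RNA helicase gene Dhx30, with a median of 37.95 in replicate 1 and 44.6 in replicate 2. The 15 translation factor genes had a median of 42.6, but 65.9 in replicate 1 and 41.9 in replicate 2, with Tufm, the elongation factor that brings aminoacyl-tRNA, at 16.8. These lists are short, their members were named after earlier results were known, and no test was made over them.

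Domains of the translation factor genes had a median width of 1803 bp and those of the assembly genes 2087 bp, against 2158 bp for the Mrp genes. None of the 15 translation factor genes had a head-to-head partner, and 2 of the 19 marked assembly genes did, against 18 of the 78 Mrp genes. At least 2 peaks lay at 4 of the 15 translation factor genes and at 47 of the 78 Mrp genes, with 12 and 63 in replicate 1 and 5 and 41 in replicate 2. In the same order of lists the Mrp shares were 60.3%, 80.8% and 52.6%, below the 67.8%, 83.7% and 61.1% of the other marked genes.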
